A study of Pangasianodon hypophthalmus with 14 samples.

Results

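Gene expression of whole tra catfish (Pangasianodon hypophthalmus) larvae at 10 days post fertilization (dpf) was compared with that at 9 dpf, a step of 1 day. The comparison was between 4 of the 14 libraries of the series, 2 at 10 dpf and 2 at 9 dpf. It covered all genes of the count table, of which 19310 of 21656 passed the filter on low counts and were tested. Tra catfish is a farmed fish that can take up oxygen from air through its swim bladder. The series followed whole-body RNA over 7 stages between 2 and 11 dpf, with 2 libraries for each, to relate gene expression to the onset of air breathing. Both groups compared here were whole larvae that differ in the labels only by age, and no strain, sex or treatment is given. Each replicate was a pool of 4 larvae, and RNA of both pools of a stage was used in equal amounts. It was not stated whether the libraries of a stage hold separate pools. The p-values below rest on the spread within stages, estimated over all 14 libraries, and this spread may be technical.

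At this age catfish larvae feed, and their digestive organs are still being built. The exocrine pancreas secretes trypsin, elastases, amylase and bile salt-activated lipase into the gut, and the glands of the stomach secrete acid through a proton pump, the H+/K+-ATPase, made of an alpha and a beta subunit. The swim bladder grows from the foregut, has a wall rich in elastin and smooth muscle, and is lined by a film of surfactant lipids and proteins that lowers surface tension. Hemoglobins, made of alpha and beta globin chains, carry oxygen in red cells, and larvae of fish exchange embryonic and larval globins for adult ones as they grow. In whole-body RNA, fewer cells of a type and less RNA per cell cannot be told apart.

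Counts assigned to genes came to 6197892 and 6611914 in the 10 dpf libraries and to 7764533 and 7197268 in the 9 dpf libraries. Levels are given below as CPM, the count of a gene relative to its library total after TMM scaling (trimmed mean of M values), without division by gene length, so they are compared between stages and not between genes. A gene with 3 counts, taken as the detection floor, stood at 0.484 and 0.454 CPM of the unscaled totals at 10 dpf and at 0.386 and 0.417 CPM at 9 dpf. The 10 most abundant genes took 22.9% and 23.2% of the counts at 10 dpf, against 24.9% and 25% at 9 dpf. The 2 libraries of 10 dpf differed from each other more than those of 9 dpf did. A chi-square statistic per gene, which is near 1 when only sampling separates a pair, was 3.84 at 10 dpf and 1.15 at 9 dpf. Over the series the pairs of 6, 9 and 11 dpf lay between 1.13 and 1.29, and the pairs of 2, 4, 8 and 10 dpf between 3.69 and 29.6. The step from 9 to 10 dpf thus lies between a pair of each kind, and this difference and the difference in age cannot be told apart. Whole-body identity was visible in the markers found of 10 cell types, since all of those of muscle, neuron, hepatocyte, red cell, exocrine pancreas, enterocyte, photoreceptor, epidermis and melanophore exceeded the floor in all 4 libraries, and 1 of 2 lens markers did.

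Between 10 and 9 dpf 195 genes were called, 153 higher and 42 lower at 10 dpf, which is 1.01% of the genes tested, 0.792% higher and 0.218% lower. The calls counted in each gene list below are to be read beside these shares, since a few calls in a long list can lie near them. A call needed a Benjamini-Hochberg (BH) adjusted p under 0.05 in edgeR's quasi-likelihood (QL) test and a log2 fold change beyond 1 in size. Genes of the stomach, the pancreas, surfactant, hemoglobin and inflammation were among those that rose, beside many listed only by a LOC identifier. Of the 153 genes that rose, 44 changed by more than 2 on the log2 scale, 77 have a symbol and 76 have only a LOC identifier. The 42 that fell were mostly small changes, 30 of them under 1.5 in size. All 195 had libraries that did not overlap between the stages, which also held for 10247 of all genes tested (53.1%). The adjusted p alone was under 0.05 for 392 genes (2.03%), and the unadjusted p for 2829 (14.7%). A log2 fold change above 0, of any size, was found for 10149 of the 19310 genes tested.

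The number of calls depended on each of the 4 libraries. It was 102 (82 higher, 20 lower) without replicate 1 of 10 dpf and 125 (108 higher, 17 lower) without replicate 2 of 10 dpf. It was 86 (66 higher, 20 lower) without replicate 1 of 9 dpf and 79 (63 higher, 16 lower) without replicate 2 of 9 dpf. With the near-identical pair of 9 dpf summed to 1 library, 87 genes were called (65 higher, 22 lower), and all 87 were among the 195. Fewer still were called with the pairs of 6, 9 and 11 dpf summed. A call said below to hold with the 9 dpf pair summed may be lost there. Scaling by library totals alone called 185 genes, of which 61.6% were higher at 10 dpf, against 78.5% with TMM.

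**Figure D1:**
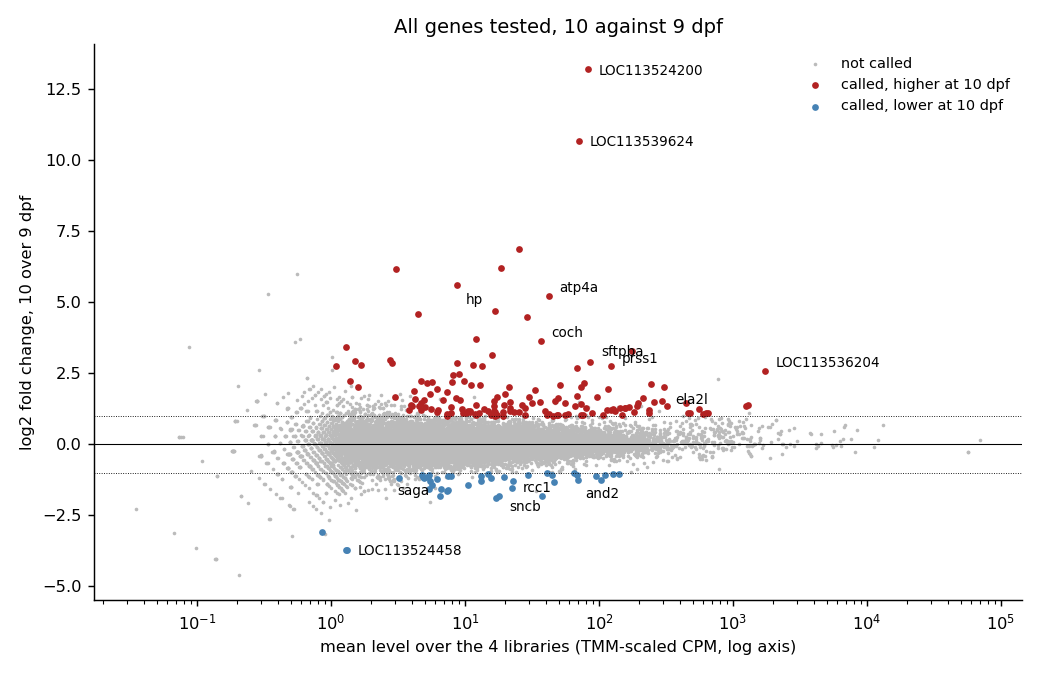
Each point is 1 of the 19310 genes tested, with its mean level over the 4 libraries (TMM-scaled CPM, log axis) against its log2 fold change of 10 over 9 dpf, and dotted lines mark 1 and -1. The 153 genes called higher at 10 dpf reach far above the 42 called lower, and LOC113524200 and LOC113539624 stand at the top with hardly any count at 9 dpf, so that their plotted fold changes depend on the fit.

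Both subunits of the acid pump of the stomach rose. atp4a, the catalytic alpha subunit of the H+/K+-ATPase, was at 51.5 and 112 CPM in the 10 dpf libraries, against 2.22 and 2.11 CPM in the 9 dpf libraries. Both 10 dpf libraries were far above both 9 dpf libraries, and replicate 2 of 10 dpf was above replicate 1 by more than the whole 9 dpf level. The log2 fold change was 5.23 (SE 0.37, edgeR QL, BH-adjusted p = 2.16e-07). atp4b, the beta subunit that the pump needs to reach the membrane, was at 18.9 and 27.6 CPM at 10 dpf, against 2.62 and 4.36 CPM at 9 dpf. Its log2 fold change was 2.75 (SE 0.30, edgeR QL, BH-adjusted p = 5.13e-05), with no overlap between the stages. slc26a9, a chloride transporter of the gastric epithelium in mammals, was at 5.21 and 6.25 CPM at 10 dpf, against 2.49 and 1.83 CPM at 9 dpf. It rose by 1.4 on the log2 scale (SE 0.34, edgeR QL, BH-adjusted p = 0.0398). This call was lost with the 9 dpf pair summed, by library totals alone, with DESeq2 and without any 1 of the 4 libraries. The list of gastric genes had 13 members tested, 3 of them called higher and 0 lower. Of the 13, 7 are pgam and pgap genes that the name pattern for pepsinogens took in and that have no gastric role, which leaves 6 stomach genes. Among these, the chitinases chia.1 and chia.2 and cckar, the receptor of cholecystokinin, did not pass the test. chia.1 was at 448 and 493 CPM at 10 dpf, against 421 and 414 CPM at 9 dpf, and chia.2 at 955 and 1020 CPM, against 1030 and 1070 CPM.

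Several pancreatic digestive enzymes rose. All 10 members of the list had a positive log2 fold change and no overlap between the stages, as 28.8% of all genes tested had in that direction, 4 were called higher and 0 lower, and the median was 0.90, against 0.02 over all genes tested. For 9 over 8 dpf, which shares the 9 dpf libraries, the median of the list was -0.91, against -0.05 over all genes tested. For 11 over 8 dpf it was 0.39, against -0.01. prss1, a trypsin that activates the other pancreatic zymogens, was at 221 and 210 CPM at 10 dpf, against 35.6 and 28.2 CPM at 9 dpf. The pairs lay close together at each stage, and the log2 fold change was 2.75 (SE 0.15, edgeR QL, BH-adjusted p = 1.71e-08). ela2l and ela3l encode elastases, serine proteases that cut after small residues. ela2l had 465 and 515 CPM at 10 dpf, against 126 and 119 CPM at 9 dpf. It rose by 2.00 (SE 0.45, edgeR QL, BH-adjusted p = 0.0276). ela3l had 577 and 732 CPM at 10 dpf, against 237 CPM in each library of 9 dpf, and rose by 1.47 (SE 0.17, edgeR QL, BH-adjusted p = 1.27e-04). cel, the bile salt-activated lipase that splits fats and cholesterol esters, had 180 and 262 CPM at 10 dpf, against 92.9 and 89.6 CPM at 9 dpf. Its log2 fold change was 1.28 (SE 0.20, edgeR QL, BH-adjusted p = 0.00235). Members that missed the call by size were amy2a, the amylase, with a log2 fold change of 0.94, and cela1.6, another elastase, with 0.81. The remaining members were cpb1 and cpa4 (carboxypeptidases), pla2g1b (the pancreatic phospholipase) and clps (colipase), with log2 fold changes of 0.85, 0.28, 0.78 and 0.50. Markers of the exocrine pancreas, with prss1 and cel among them, summed to 706.9 and 803.1 CPM at 10 dpf, against 298.2 and 287.2 CPM at 9 dpf. This sum is not separate from the rise of these genes, and its part in the result was not tested. With the 9 dpf pair summed 2 of the list were called, and ela2l, which also lost its call without any 1 of the 4 libraries, and cel, which lost it without replicate 1 or 2 of 9 dpf or replicate 2 of 10 dpf, were not. These proteases belong to families of similar genes, and how reads that fit several copies were counted was not stated. With DESeq2 3 of the list were called higher. prss1 and ela3l did not both keep their calls with the pairs of 6, 9 and 11 dpf summed.

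Some further genes that rose are given next, and a role in digestion was not tested for pla2g4c or the LOC genes. sycn, encoding syncollin, a protein of the zymogen granules of the pancreas, had 322 and 253 CPM at 10 dpf, against 107 and 105 CPM at 9 dpf, and rose by 1.44 (SE 0.18, edgeR QL, BH-adjusted p = 1.57e-04). pla2g4c, a phospholipase A2 of the cytosol, had 10.2 and 8.56 CPM at 10 dpf, against 2.09 and 1.97 CPM at 9 dpf. With cel, it made up the 2 called, both higher, of 77 carboxylic ester hydrolases, whose median was 0.03. gipr, the receptor of the gut hormone GIP, had 14 and 18 counts at 10 dpf, against 2 and 3 counts at 9 dpf, a ratio of 7.98 (95% interval 3.09 to 26.2, counting error only), and lost its call with DESeq2, with the 9 dpf pair summed and without any 1 of the 4 libraries. Several LOC genes called higher are listed as peptidases in gene ontology (GO) lists that the study drew up for genes changed between successive stages of this series, that of 9 and 10 dpf included. The lists were read here for annotation alone, from steps other than 9 to 10 dpf, and are not independent evidence of a direction. LOC113532348, listed under serine-type endopeptidase activity, had 1900 and 1690 CPM at 10 dpf, against 706 and 716 CPM at 9 dpf. LOC113526417, with the same annotation, had 96.0 and 115 CPM at 10 dpf, against 31.5 and 33.3 CPM at 9 dpf. Among those listed under metallopeptidase activity, LOC113546609 had 883 and 694 CPM at 10 dpf, against 335 and 332 CPM at 9 dpf. LOC113546600 had 131 and 122 CPM at 10 dpf, against 30.1 and 27.0 CPM at 9 dpf. In none of these did the stages overlap. Of 49 intestinal absorption genes tested 0 were called in edgeR and in DESeq2, 13 had an unadjusted p under 0.05, and the median log2 fold change was 0.14. With only the 4 libraries of 9 and 10 dpf in the fit, 2 were called higher. apob, the scaffold of lipoprotein particles, was at 1660 and 1500 CPM at 10 dpf, against 1540 and 1550 CPM at 9 dpf. The summed level of the enterocyte markers was 249.5 and 281.4 CPM at 10 dpf, against 290 and 293.9 CPM at 9 dpf.

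**Figure D2:**
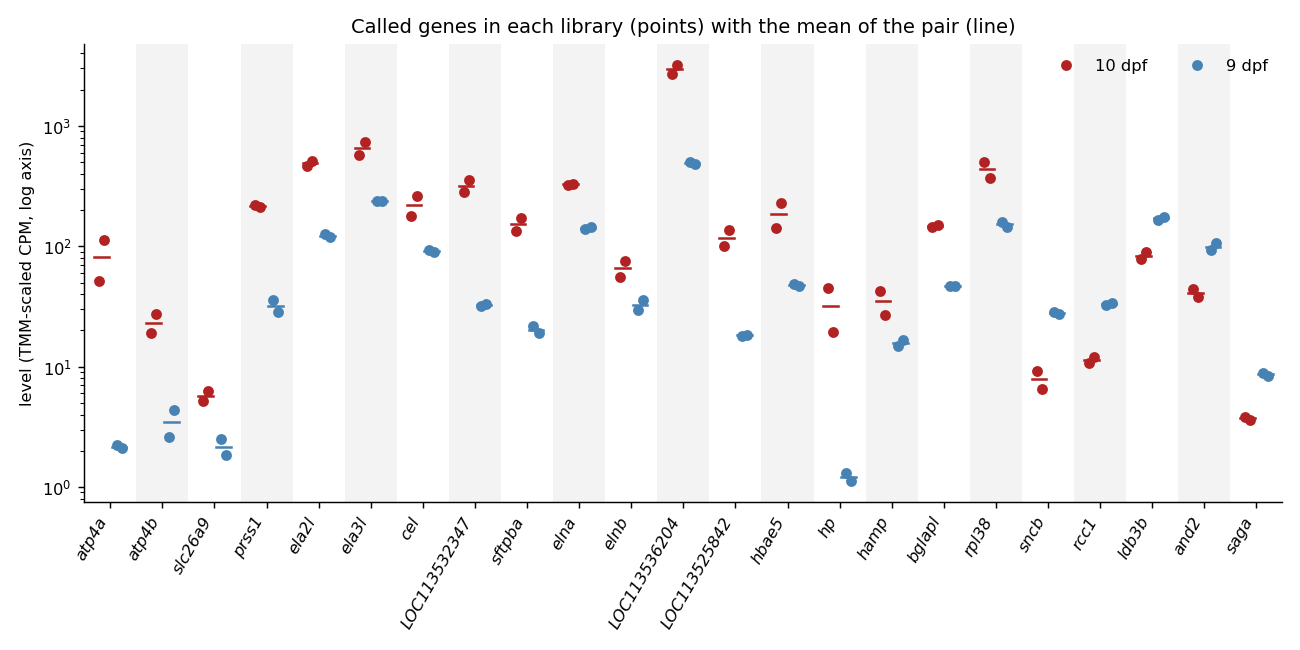
Levels (TMM-scaled CPM, log axis) of 23 called genes in the 2 libraries of 10 dpf (left in each column) and the 2 libraries of 9 dpf (right), with a line at the mean of each pair. The stages do not overlap for any of them, and the points of 10 dpf lie farther apart than those of 9 dpf for atp4a and hp.

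Several of the largest changes were in genes known here only by identifier. Not all of these exceeded named genes. LOC113531715 (4.61) and LOC113523927 (4.50) rose less on the log2 scale than atp4a (5.23) and hp (4.70). LOC113524200 had 127 and 205 CPM (731 and 1247 counts) at 10 dpf and 0 counts in both libraries of 9 dpf. Set against a floor of 3 counts in each 9 dpf library, it was at least 408-fold higher at 10 dpf. It had counts at all other stages, where its means were 1.21, 17, 79.3, 121 and 338 CPM (2, 4, 6, 8 and 11 dpf in this order), so that 9 dpf alone was empty. LOC113539624, placed under chitin metabolic process in the study's GO lists, had 95.4 and 187 CPM at 10 dpf, and 1 and 0 counts at 9 dpf. The ratio was 2110, with a 95% counting interval of 377 to 83200. Its mean was 617 CPM at 11 dpf, against 2.34 CPM at 8 dpf. LOC113531099 had 41.0 and 59.1 CPM at 10 dpf, against 0.523 and 0.281 CPM at 9 dpf, a log2 fold change of 6.88 (SE 0.40, edgeR QL, BH-adjusted p = 2.56e-08). Its neighbour in the name table, LOC113531715, had 4.69 and 12.5 CPM at 10 dpf, against 0.393 and 0.281 CPM at 9 dpf. LOC113527478 was at 17.5 and 55.5 CPM at 10 dpf, against 0.262 and 0.703 CPM at 9 dpf. LOC113530710 was at 13.7 and 20.7 CPM at 10 dpf, against 0.131 and 0.562 CPM at 9 dpf. The stages were widely apart for each of these, and the libraries of 10 dpf differed from each other as well. LOC113527478, LOC113530710, LOC113531099 and LOC113531715 were still higher at 11 dpf, with means of 125, 100, 182 and 54.0 CPM, and each was under 1 CPM at 8 dpf. LOC113523927 had 51.5 and 59.4 CPM at 10 dpf, against 1.96 and 2.95 CPM at 9 dpf. LOC113532347, the neighbour of LOC113532348, had 280 and 356 CPM at 10 dpf, against 32.1 and 33.2 CPM at 9 dpf. All genes named in this paragraph were also called with the 9 dpf pair summed.

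In surfactant and swim bladder, sftpba had the largest change. It encodes surfactant protein B, which spreads surfactant lipids at an air and liquid surface in the lung. The gene had 133 and 172 CPM at 10 dpf, against 21.6 and 19.0 CPM at 9 dpf. The stages were far apart, and the log2 fold change was 2.91 (SE 0.33, edgeR QL, BH-adjusted p = 7.91e-05). elna and elnb encode elastin, the protein that lets walls of vessels and air bladders recoil. elna had 326 and 328 CPM at 10 dpf, against 139 and 145 CPM at 9 dpf, and rose by 1.20 (SE 0.26, edgeR QL, BH-adjusted p = 0.0242). elnb had 55.5 and 75.7 CPM at 10 dpf, against 29.4 and 35.5 CPM at 9 dpf, and rose by 1.02 (SE 0.18, edgeR QL, BH-adjusted p = 0.00496). The second surfactant protein B gene, sftpbb, stood at 11.3 and 11.0 CPM at 10 dpf, against 7.46 and 5.34 CPM at 9 dpf (log2 fold change 0.79, edgeR QL, BH-adjusted p = 0.0854). abca3, which loads surfactant lipids into lamellar bodies, had a log2 fold change of 0.46. acta2, the actin of smooth muscle, and fbln5, which helps to assemble elastic fibers, had log2 fold changes of 0.65 and 0.60 (edgeR QL, BH-adjusted p = 0.0344 and 0.0333), under the size a call needs. Of the 29 genes of the list tested, 3 were called higher and 0 lower, 19 had a positive log2 fold change, and the median was 0.15. Developmental regulators in the list went both ways. The genes shha, foxa2, sox9a and wnt5a had log2 fold changes of 0.08, 0.14, 0.20 and 0.15, and etv5b had -0.58. The lowest member of the list stood at -0.78. sftpba was called with the 9 dpf pair summed but not with DESeq2 or with the pairs of 6, 9 and 11 dpf summed. elna lost its call with the 9 dpf pair summed and without any 1 of the 4 libraries. elnb lost its call with the 9 dpf pair summed and by library totals alone. Its call was also lost without replicate 1 of 9 dpf or replicate 2 of 10 dpf. With only the 4 libraries of 9 and 10 dpf, or the 8 libraries of 8 to 11 dpf, elnb was not called either.

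Among oxygen carriers, some hemoglobin genes rose. LOC113536204 and LOC113525842 were named from among the called genes by their annotation in the study's GO lists. Genes with such an annotation that were not called were not counted. LOC113536204, listed by the study under the hemoglobin complex, had 2690 and 3220 CPM at 10 dpf, against 502 and 484 CPM at 9 dpf. LOC113525842, listed under oxygen transport, had 100 and 136 CPM at 10 dpf, against 18.1 and 18.3 CPM at 9 dpf. hbae5, an alpha globin of the embryo in zebrafish, had 141 and 230 CPM at 10 dpf, against 48.7 and 46.8 CPM at 9 dpf. For all of these, both libraries of 10 dpf were above both of 9 dpf, and replicate 2 of 10 dpf was above replicate 1. Red cell markers, with hbae5 and hbba2 among them, summed to 420.1 and 601.3 CPM at 10 dpf, against 330.5 and 346.2 CPM at 9 dpf. This sum is not separate from the rise of hbae5, and its part in the result was not tested. With the 9 dpf pair summed, LOC113525842 was called, and hbae5 and LOC113536204 were not. LOC113536204 also lost its call with DESeq2 and without any 1 of the 4 libraries, and hbae5 with DESeq2 and without replicate 1 or 2 of 9 dpf or replicate 2 of 10 dpf. The list by symbol held 7 oxygen carriers tested, of which hbae5 alone was called. mb, encoding myoglobin, had 115 and 81.3 CPM at 10 dpf, against 52.1 and 49.5 CPM at 9 dpf, a log2 fold change of 0.95 (SE 0.20, edgeR QL, BH-adjusted p = 0.0163), just under the size a call needs. hbaa2, an alpha globin, was near the floor, with 7 and 7 counts at 10 dpf against 1 and 3 counts at 9 dpf. hbba2, a beta globin, was at 3.30 and 3.46 CPM at 10 dpf, against 2.75 and 2.95 CPM at 9 dpf. The globins outside red cells, ngb, cygb and xgb, had log2 fold changes of -0.33, 0.21 and -0.54, and none passed the test. Globin genes are near-identical copies in part, so their separate values are uncertain.

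Of 44 other genes of heme synthesis and red cells, 0 were called in edgeR and in DESeq2, 4 had an unadjusted p under 0.05, and the median was 0.03. prdx2, a peroxiredoxin of red cells, had 290 and 299 CPM at 10 dpf, against 252 and 237 CPM at 9 dpf. sptb, the spectrin of the red cell membrane, had 285 and 307 CPM at 10 dpf, against 315 and 318 CPM at 9 dpf. Of 51 hypoxia response genes 0 were called in edgeR and in DESeq2, 11 had an unadjusted p under 0.05, and the median was 0.11. With only the 4 libraries of 9 and 10 dpf in the fit, 1 was called lower. eno1 and aldoa, glycolytic enzymes that low oxygen induces, had log2 fold changes of 0.28 and 0.16. Neither passed the test.

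Genes of inflammation and defence rose in part. hp, encoding haptoglobin, which binds free hemoglobin, had 45.1 and 19.3 CPM at 10 dpf, against 1.31 and 1.12 CPM at 9 dpf. The libraries of 10 dpf differed from each other by more than 2-fold and both were well above 9 dpf (log2 fold change 4.70, SE 0.59, edgeR QL, BH-adjusted p = 1.83e-04). At 11 dpf hp was at 3.20 CPM, against 4.14 CPM at 8 dpf, so the high level was seen at 10 dpf and, before that, at 4 dpf (37.1 CPM). ccl19, a chemokine that guides lymphocytes and dendritic cells in mammals, had 4.86 and 5.27 CPM at 10 dpf, against 1.05 and 0.281 CPM at 9 dpf. hamp, encoding hepcidin, the hormone that limits iron export, had 42.9 and 26.7 CPM at 10 dpf, against 14.8 and 16.7 CPM at 9 dpf. These were the 3 called of 42 acute phase and inflammation genes, 33 of which had a positive log2 fold change (median 0.35). cp, the iron oxidase ceruloplasmin, had 323 and 321 CPM at 10 dpf, against 146 and 150 CPM at 9 dpf, and rose by 1.12 (SE 0.23, edgeR QL, BH-adjusted p = 0.0168). c4, complement factor 4, had 18.6 and 11.8 CPM at 10 dpf, against 6.54 and 6.74 CPM at 9 dpf. They were the 2 called of 51 genes of liver plasma proteins, of which 43 had a positive log2 fold change, with a median of 0.19. Hepatocyte markers summed to 1622 and 1888 CPM at 10 dpf, against 1611 and 1614 CPM at 9 dpf. With the 9 dpf pair summed, hp and ccl19 were called, and hamp, cp and c4 were not. ccl19 lost its call without replicate 2 of 9 dpf or either library of 10 dpf, cp without any 1 of the 4 libraries, and hamp and c4 without either library of 9 dpf or replicate 1 of 10 dpf.

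Markers of blood cells and pigment cells had medians above that of all genes, with 1 call in each list. At 11 against 8 dpf the medians were -0.40 for myeloid, 0.13 for lymphocyte and 0.22 for pigment cell genes, against -0.01 over all genes tested. Of 23 myeloid genes 19 had a positive log2 fold change, against 10149 of all 19310 genes tested, with a median of 0.56. grna, a progranulin, was the 1 called, with 24.8 and 19.1 CPM at 10 dpf against 8.77 and 11.9 CPM at 9 dpf. mpx, the peroxidase of neutrophils, had 15.4 and 25.3 CPM at 10 dpf, against 10.5 and 8.85 CPM at 9 dpf (log2 fold change 1.08, edgeR QL, BH-adjusted p = 0.0563). Of 19 genes in the lymphocyte list 1 was called, cd74a, the invariant chain that escorts MHC class II, with 10.2 and 7.24 CPM at 10 dpf against 3.79 CPM in each library of 9 dpf. Of 23 pigment cell genes 20 were above 0, with a median of 0.54, and 1 was called. This was slc45a2, a transporter needed for melanin synthesis, with 5.73 and 7.41 CPM at 10 dpf against 3.40 and 2.25 CPM at 9 dpf. The calls of cd74a and slc45a2 were lost with DESeq2, by library totals alone, with a replicate block (the replicate number as a term), with the 9 dpf pair summed and without any 1 of the 4 libraries. grna lost its call by library totals alone and without replicate 1 of 9 dpf or replicate 1 of 10 dpf. Vessel and endothelial genes had 33 of 40 above 0 and a median of 0.39, 0 were called in edgeR and in DESeq2, and 16 had an unadjusted p under 0.05. Other genes of defence called higher were cfd (complement factor D, 71.3 and 58.6 CPM at 10 dpf against 30.9 and 32.9 CPM at 9 dpf), pglyrp2 (a peptidoglycan recognition protein, 23.3 and 22.1 against 10.7 and 9.55 CPM) and cd40 (a receptor of B cells and macrophages, 5.21 and 5.43 against 2.62 and 1.97 CPM). These 3 lost their calls with the 9 dpf pair summed and without any 1 of the 4 libraries. LOC113540233, listed by the study under defence response to other organism, had 133 and 102 CPM at 10 dpf, against 29.6 and 29.1 CPM at 9 dpf. LOC113531235, with the same annotation, had 74.3 and 90.5 CPM at 10 dpf, against 18.5 and 19.8 CPM at 9 dpf. Both stood apart between the stages. Of 43 interferon response genes 0 were called in edgeR and in DESeq2, 9 had an unadjusted p under 0.05, and the median was -0.02. With only the 4 libraries of 9 and 10 dpf in the fit, 1 was called lower.

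Skeletal genes rose in small number. bglapl, an osteocalcin of bone matrix, had 145 and 149 CPM at 10 dpf, against 46.8 and 46.4 CPM at 9 dpf. The pairs were tight, and the log2 fold change was 1.66 (SE 0.16, edgeR QL, BH-adjusted p = 1.67e-05). spp1, encoding osteopontin, had 155 and 133 CPM at 10 dpf, against 70.9 and 68.1 CPM at 9 dpf, and lost its call by library totals alone, with the 9 dpf pair summed and without either library of 9 dpf or replicate 1 of 10 dpf. ucmaa, a matrix protein of cartilage, had 26.5 and 30.3 CPM at 10 dpf, against 11.0 and 10.8 CPM at 9 dpf. Of 32 bone and tooth genes 2 were called higher, 0 lower, and 25 were above 0, with a median of 0.26. Of 53 collagen genes 41 were above 0, with a median of 0.30, 0 were called in edgeR and in DESeq2, and 21 had an unadjusted p under 0.05. col1a1a, the main collagen of bone and skin, had 9490 and 10100 CPM at 10 dpf, against 7010 and 6810 CPM at 9 dpf (log2 fold change 0.50, SE 0.30, edgeR QL, BH-adjusted p = 0.463). scxb, a tendon transcription factor, had 15 and 13 counts at 10 dpf, against 1 and 2 counts at 9 dpf, a ratio of 11.6 (95% interval 3.59 to 59.8, counting error only), and lost its call with DESeq2 and without either library of 9 dpf or replicate 1 of 10 dpf. coch and stm belong to the ear in other vertebrates. coch, encoding cochlin, had 63.2 and 72.4 CPM at 10 dpf, against 4.19 and 6.60 CPM at 9 dpf (log2 fold change 3.65, SE 0.29, edgeR QL, BH-adjusted p = 1.14e-06). stm, encoding starmaker, which shapes otolith crystals in zebrafish, had 63.2 and 43.1 CPM at 10 dpf, against 19.2 and 18.7 CPM at 9 dpf.

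Genes of epithelia and secretion rose as well. cldn18, a tight junction protein that in mammals marks stomach and lung epithelium, had 11.8 and 14.6 CPM at 10 dpf, against 2.49 and 3.23 CPM at 9 dpf, a log2 fold change of 2.21 (SE 0.27, edgeR QL, BH-adjusted p = 1.72e-04). agr2, a protein disulfide isomerase that mucin secretion needs, had 113 and 112 CPM at 10 dpf, against 45.9 and 46.9 CPM at 9 dpf. cftr, the chloride channel of secretory epithelia, had 32.3 and 31.4 CPM at 10 dpf, against 15.3 and 13.5 CPM at 9 dpf. For all of these the stages did not overlap, and the calls held with the 9 dpf pair summed. Those of agr2 and cftr were lost with the pairs of 6, 9 and 11 dpf summed. wfdc2 and spink4, inhibitors of proteases secreted by epithelia, rose by 1.24 and 1.15, calls that were lost with the 9 dpf pair summed and without either library of 9 dpf or replicate 1 of 10 dpf. wfdc2 had 22.0 and 16.8 CPM at 10 dpf, against 7.33 and 9.13 CPM at 9 dpf. spink4 had 28.6 and 17.4 CPM at 10 dpf, against 9.95 and 10.8 CPM at 9 dpf. A further member of the family, wfdc1, fell to 7.29 and 9.22 CPM at 10 dpf, against 17 and 19.0 CPM at 9 dpf, a call lost without replicate 2 of 9 dpf or replicate 1 of 10 dpf. These 3 were the called ones of 40 peptidase inhibitors, whose median was 0.18. Of 58 epidermal keratin and junction genes 3 were called higher (agr2, cldn18 and the claudin cldn11) and 0 lower. None of the 3 is a keratin. By library totals alone 2 genes of this list were called higher and 1 lower. The 2 epidermis markers found, of 6 listed, summed to 295.2 and 239.8 CPM at 10 dpf, against 202.7 and 204.7 CPM at 9 dpf. Their part in the result was not tested. cldn11 had 6.25 and 5.27 CPM at 10 dpf, against 2.09 and 2.39 CPM at 9 dpf, and lost its call with DESeq2, the replicate block, the 9 dpf pair summed and without any 1 of the 4 libraries. Of 5 mucus genes tested agr2 was the 1 called, all 5 had a positive log2 fold change, and the median was 0.95. The mucins muc13b and muc15 had 0.05 and 0.21, spdef, a transcription factor of mucus cells, 0.95, and the intelectin itln3 1.67 (edgeR QL, BH-adjusted p = 0.113). Over all genes tested 0.792% were called higher and 0.218% lower. Of 122 genes of ion and acid-base transport 2 were called higher (cftr and slc26a9) and 1 lower, slc12a10.1, a sodium chloride cotransporter of ionocytes in zebrafish. It had 2.95 and 2.47 CPM at 10 dpf, against 7.85 and 8.43 CPM at 9 dpf, and fell by 1.58 (SE 0.31, edgeR QL, BH-adjusted p = 0.0111), a call lost without any 1 of the 4 libraries.

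**Figure D3:**
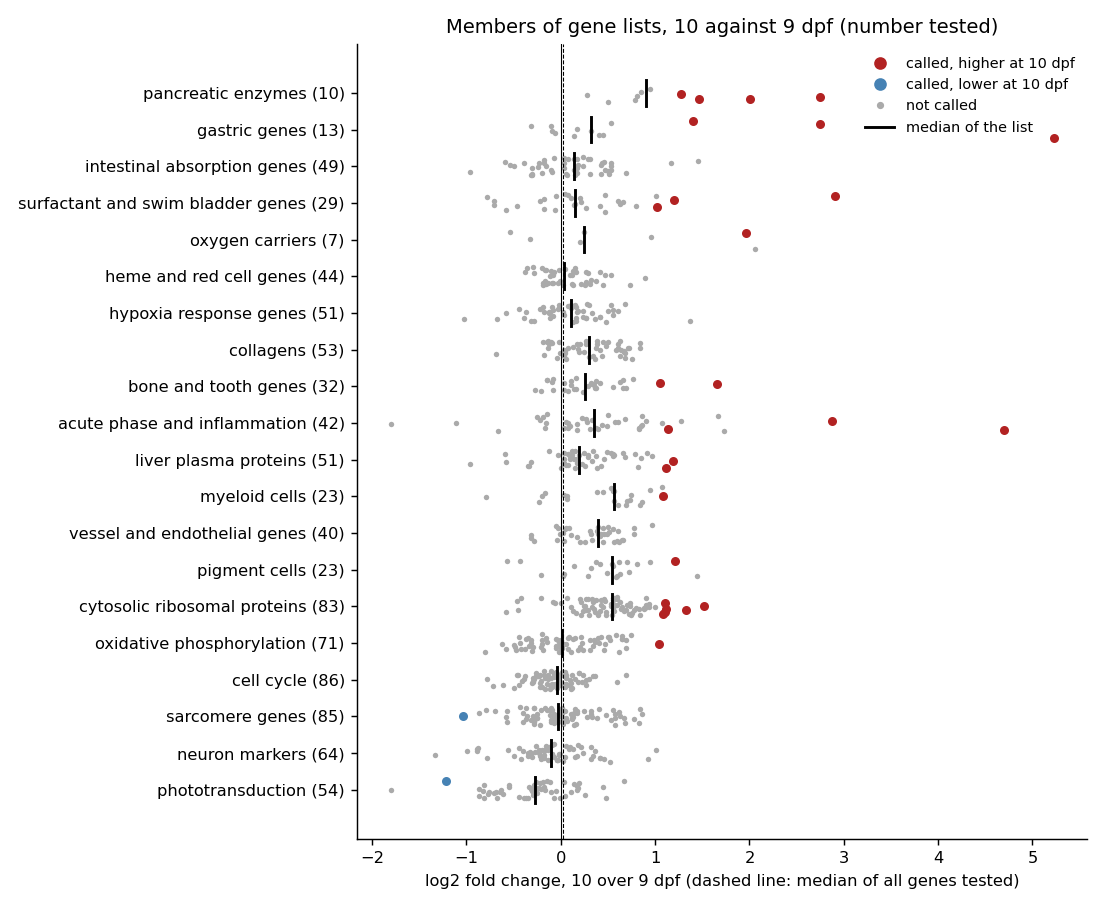
Log2 fold changes of 10 over 9 dpf for the members of 20 gene lists, with the number tested in brackets, the median of each list as a black bar and the median of all genes tested (0.02) as a dashed line. All 10 pancreatic enzymes lie above 0, the ribosomal proteins have a median of 0.54 and the phototransduction genes one of -0.27.

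Most cytosolic ribosomal proteins stood higher at 10 dpf, and 6 were called. Of 83 tested 75 had a positive log2 fold change, and 72 had non-overlapping libraries in that direction (28.8% of all genes tested did). Called were 6 higher (0.792% of all genes tested were) and 0 lower, and the median was 0.54. The called members were rpl38, rpl27a, rpl36, rpl29, rpl37 and 1 of the copies of rpl22. rpl38 had 500 and 369 CPM at 10 dpf, against 159 and 145 CPM at 9 dpf, and a log2 fold change of 1.52 (SE 0.32, edgeR QL, BH-adjusted p = 0.0178). Over all 83 the summed level was 81540 and 72990 CPM at 10 dpf, against 56260 and 55000 CPM at 9 dpf. Replicate 1 of 10 dpf was above replicate 2 for 64 of the 83. At 11 against 8 dpf, which shares no library with the comparison of 10 and 9 dpf, the median went the other way, at -0.51, with sums of 59940 and 59080 CPM at 11 dpf against 77100 and 88400 CPM at 8 dpf. All 6 calls were lost with the 9 dpf pair summed, and the part of the difference in pair spread was not tested. atp5md, a small subunit of the ATP synthase, was the 1 called of 71 genes of oxidative phosphorylation, with 226 and 173 CPM at 10 dpf against 92.3 and 101 CPM at 9 dpf. Its call was lost by library totals alone, with the 9 dpf pair summed and without either library of 9 dpf or replicate 1 of 10 dpf. The median of that list was 0.01.

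The 42 genes that fell included genes of nerve cells and of RNA processing, which were picked out after their values were seen. sncb, encoding beta-synuclein of nerve endings, had 9.20 and 6.58 CPM at 10 dpf, against 28.3 and 27.5 CPM at 9 dpf. Its log2 fold change was -1.82 (SE 0.18, edgeR QL, BH-adjusted p = 1.67e-05), with no overlap. gng3, a G protein gamma subunit of neurons, had 4.16 and 2.96 CPM at 10 dpf, against 9.68 and 12.6 CPM at 9 dpf, and fell by 1.64 (SE 0.36, edgeR QL, BH-adjusted p = 0.0213), a call lost with the 9 dpf pair summed and without any 1 of the 4 libraries. Of 64 neuron markers 0 were called in edgeR and in DESeq2, 10 had an unadjusted p under 0.05, with 21 above 0 and a median of -0.11, and neuron cell type markers summed to 145.9 and 163.2 CPM at 10 dpf, against 161.1 and 159.1 CPM at 9 dpf. rcc1, the chromatin-bound exchange factor of Ran, had 10.8 and 12 CPM at 10 dpf, against 32.6 and 33.6 CPM at 9 dpf. Its log2 fold change was -1.54 (SE 0.16, edgeR QL, BH-adjusted p = 2.24e-05). Genes of RNA processing included rnps1, a splicing activator, with 15.1 and 11.4 CPM at 10 dpf against 33.0 and 31.8 CPM at 9 dpf. hnrnpaba, an RNA-binding protein, had 61.4 and 57.8 CPM at 10 dpf, against 136 and 122 CPM at 9 dpf. nop10, a subunit of the RNPs that make pseudouridine, had 5.55 and 5.76 CPM at 10 dpf, against 16.9 and 13.8 CPM at 9 dpf. ppil1, a cyclophilin of the spliceosome, had 4.16 and 3.29 CPM at 10 dpf, against 12.2 and 10.4 CPM at 9 dpf. All of these were lower in both libraries of 10 dpf than in either of 9 dpf, and hnrnpaba lost its call without replicate 1 of 9 dpf or either library of 10 dpf.

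Other genes that fell belong to muscle, fin and retina. ldb3b, a protein of the Z-disc of muscle, had 77.9 and 89.0 CPM at 10 dpf, against 166 and 176 CPM at 9 dpf, and fell by 1.03 (SE 0.14, edgeR QL, BH-adjusted p = 3.20e-04). It was the 1 called of 85 sarcomere genes, whose median was -0.03. The titin genes ttn.1 and ttn.2 had log2 fold changes of -0.29 and -0.28. and1 and and2 encode actinodins, which form the horny rays of the fin fold in zebrafish. and1 had 49.3 and 38.0 CPM at 10 dpf, against 88.9 and 96.5 CPM at 9 dpf, and and2 had 43.9 and 38.2 CPM, against 92.3 and 106 CPM. They fell by 1.09 and 1.27 on the log2 scale, and1 lost its call with the 9 dpf pair summed and without any 1 of the 4 libraries, and and2 without replicate 2 of 9 dpf or either library of 10 dpf. saga, the arrestin that switches off rhodopsin, had 3.82 and 3.62 CPM at 10 dpf, against 8.90 and 8.43 CPM at 9 dpf, and fell by 1.22 (SE 0.26, edgeR QL, BH-adjusted p = 0.0175). It was the 1 called of 54 phototransduction genes, of which 12 were above 0 and whose median was -0.27. Photoreceptor markers, with saga among them, summed to 39.2 and 38.2 CPM at 10 dpf, against 61.4 and 54.5 CPM at 9 dpf. At 11 against 8 dpf the median of the 54 was 0.99. pycr3, which makes proline from glutamate-derived precursors, was the 1 called of 52 genes of glutamine family metabolism, with 4.86 and 5.10 CPM at 10 dpf against 9.81 and 11.8 CPM at 9 dpf. Both saga and pycr3 lost their calls with the 9 dpf pair summed and without any 1 of the 4 libraries, and saga also with DESeq2. ldb3b lost its call without replicate 2 of 9 dpf or replicate 1 of 10 dpf. LOC113525973 had the largest fall among called genes with a mean of at least 5 CPM at 9 dpf, with 7.81 and 6.75 CPM at 10 dpf against 26.8 and 27.3 CPM at 9 dpf, a log2 fold change of -1.89 (SE 0.30, edgeR QL, BH-adjusted p = 0.00223). LOC113526630 had 15.4 and 17.4 CPM at 10 dpf, against 55.4 and 60.7 CPM at 9 dpf. The call of LOC113526630 was lost without replicate 2 of 9 dpf or either library of 10 dpf, and that of LOC113525973 without replicate 2 of 10 dpf.

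The genes that the study lists as specific to tra catfish against channel catfish numbered 76, of which 46 were tested. elnb and si:ch1073-126c3.2 were called higher and LOC113524458 was called lower. si:ch1073-126c3.2 had 7.81 and 14.6 CPM at 10 dpf, against 4.06 and 4.92 CPM at 9 dpf. LOC113524458 was near the floor, with 1 count in each library of 10 dpf, against 19 and 17 counts at 9 dpf, a ratio of 9 over 10 dpf of 14.4 (95% interval 3.72 to 124, counting error only). It stood under 1 CPM at each of the other stages. LOC113524458 lost its call with DESeq2 and without either library of 10 dpf. elnb and si:ch1073-126c3.2 lost theirs by library totals alone, with the 9 dpf pair summed and without replicate 1 of 9 dpf or replicate 2 of 10 dpf, and si:ch1073-126c3.2 also with the replicate block and without replicate 2 of 9 dpf. elnb was also not called with only the 4 libraries of 9 and 10 dpf or with the 8 libraries of 8 to 11 dpf. The median log2 fold change of the 46 was 0.09.

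Many gene lists gave 0 calls in edgeR and in DESeq2 between 10 and 9 dpf. These lists were matched by symbol, so genes with only a LOC identifier were not in them. LOC113539624, called higher and placed under chitin metabolic process, is such a gene and was not counted in aminoglycan metabolism. Among 86 cell cycle genes, 4 had an unadjusted p under 0.05 and the median was -0.04, and among 87 heat shock and chaperone genes these were 17 and -0.01. Of 77 genes of lipid oxidation and storage 7 had such a p, of 62 in glycolysis, gluconeogenesis and the citrate cycle 13, of 95 in aminoglycan metabolism 16, and of 49 in the thyroid and growth hormone axis 11, with medians of 0.01, 0.03, 0.06 and 0.13. Of 34 cholesterol synthesis genes 3 did, of 31 clock genes 2, of 29 in the glucocorticoid and stress axis 3, of 24 lens genes 3 and of 15 myelin genes 2, with medians between -0.17 and -0.01. mki67, a marker of dividing cells, had 147 and 155 CPM at 10 dpf, against 180 and 182 CPM at 9 dpf. hspa8, the constitutive chaperone of the cytosol, had 2710 and 2930 CPM at 10 dpf, against 2960 and 2920 CPM at 9 dpf. gapdh, the glycolytic enzyme, had 1630 and 1790 CPM at 10 dpf, against 1480 and 1440 CPM at 9 dpf. None of these 3 passed the test. A missed threshold does not show that levels were equal. With only the 4 libraries of 9 and 10 dpf, which called 300 genes, some of these lists had calls. Heat shock and chaperones had 1 higher, and lipid oxidation and storage 1 higher and 1 lower. Glycolysis, aminoglycan metabolism and the thyroid and growth hormone axis had 1 lower each. In the reported fit the lowest member of the glycolysis list stood at -2.04.

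The libraries of 11 and 8 dpf gave a view of the same genes over a longer interval. They were not among the libraries contrasted for 10 and 9 dpf, but had a part in the shared spread. Of the 153 genes that rose, 108 (70.6%) had a positive log2 fold change of 11 over 8 dpf, against 48.8% of all genes tested, 65 were called higher there and 12 lower, and the median was 0.83. For all genes tested the shares called were 2.05% higher and 1.85% lower. atp4a had a mean of 212 CPM at 11 dpf, against 2.14 CPM at 8 dpf, and prss1 had 420 CPM at 11 dpf, against 72.9 CPM at 8 dpf. sftpba had 125 CPM at 11 dpf, against 34.0 CPM at 8 dpf, and LOC113525842 had 157 CPM at 11 dpf, against 21.0 CPM at 8 dpf. These were above their 8 dpf level at both 10 and 11 dpf. Others were low at 9 dpf between higher neighbours. ela3l had means of 549, 237, 655 and 553 CPM over 8, 9, 10 and 11 dpf, and sycn had 345, 106, 288 and 259 CPM. The stage of the highest mean was 11 dpf for 63 of the 153 (41.2%, against 11.2% of all genes tested) and 4 dpf for 38 (24.8%, against 26.6%). The lowest was 2 dpf for 88 (57.5%, against 20%) and 9 dpf for 41 (26.8%, against 14.8%), a stage that the choice of these genes used.

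The 42 genes that fell showed another course. At 11 against 8 dpf 28 of them were higher, with a median of 0.31. Their highest stage mean was at 6 dpf for 21 genes (50%, against 12.7% of all genes tested) and at 9 dpf, which the choice of these genes used, for 10. In addition 25 of the 42 (59.5%) were above their 8 dpf level at both 6 and 11 dpf, against 30.5% of all genes tested. sncb had means of 28.1, 6.50, 27.9, 7.89 and 20.4 CPM over 6, 8, 9, 10 and 11 dpf. rcc1 had 30.3, 13.4, 33.1, 11.4 and 21.2 CPM at the same stages. The stages at which these genes were high are those whose library pairs were nearly identical, and whether the spread of the pairs has a part in this was not tested. slc12a10.1 had another course, with means of 36, 12.7, 8.14, 2.71 and 1.92 CPM from 6 to 11 dpf.

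**Figure D4:**
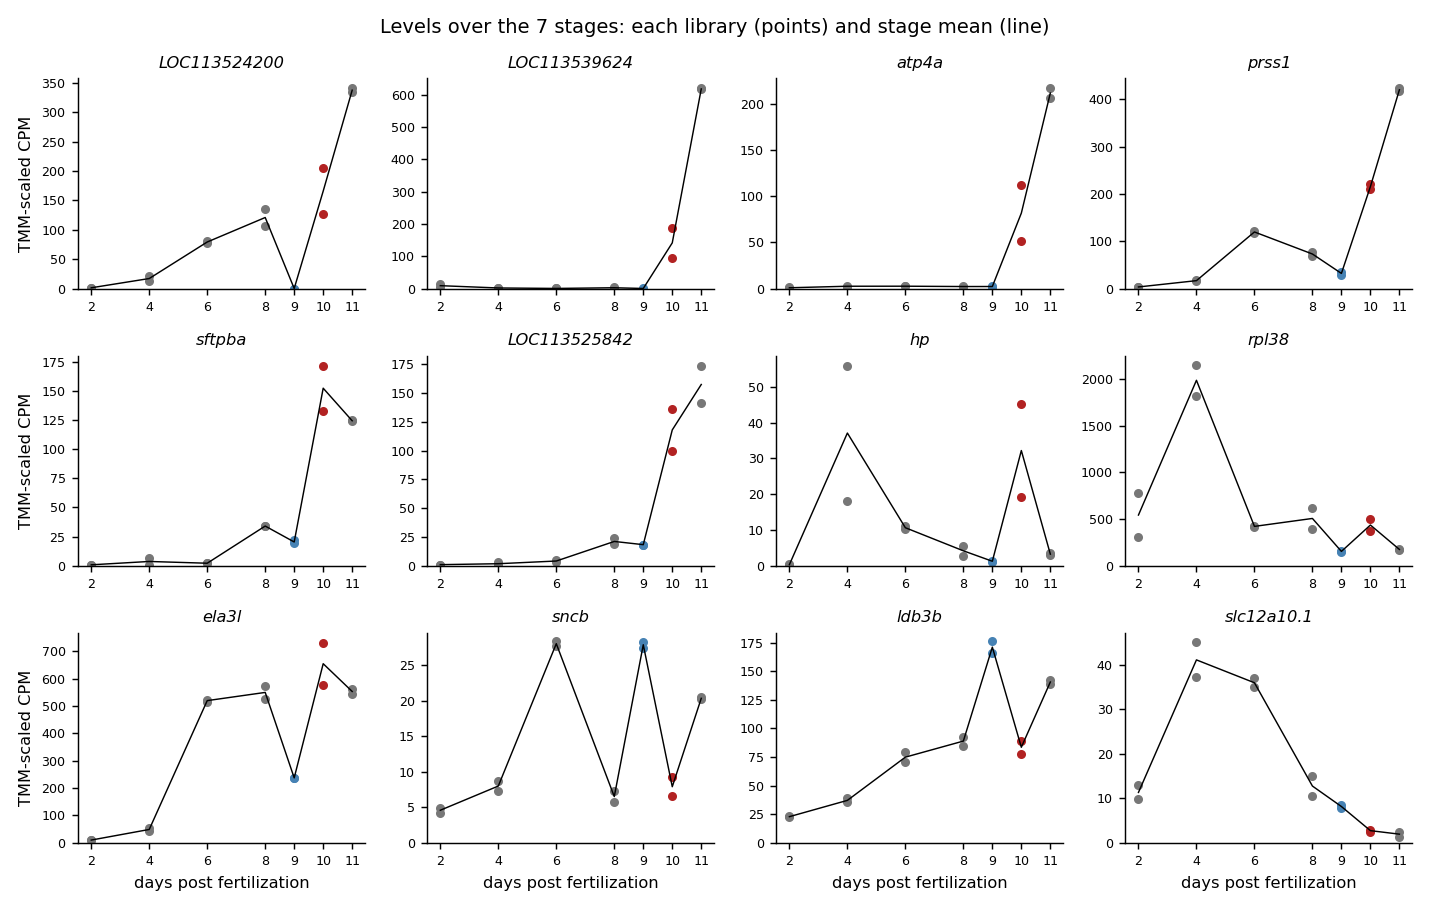
Levels (TMM-scaled CPM, linear axes from 0) of 12 called genes in every library (points, 10 dpf red and 9 dpf blue) and their stage means (line) from 2 to 11 dpf. atp4a and LOC113539624 leave the base line at 10 dpf, LOC113524200 has 0 counts at 9 dpf only, and sncb is high at 6, 9 and 11 dpf.

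Some called genes lie next to each other. In the gene order of the name table, which belongs to another assembly, 173 of the 195 called genes had a place, and 11 adjacent pairs of tested genes were both called, all in the same direction, among 10945 adjacent pairs. They included ela2l with LOC113530463, olfm4.1 with olfm4.2, LOC113532347 with LOC113532348, LOC113533918 with LOC113533920, and LOC113546609 with LOC113546600. olfm4.1, encoding an olfactomedin, had 41.6 and 19.6 CPM at 10 dpf, against 9.42 and 8.57 CPM at 9 dpf, and olfm4.2 had 45.6 and 18.9 CPM, against 12.6 and 10.3 CPM. LOC113530463 had 365 and 424 CPM at 10 dpf, against 92.1 and 89.5 CPM at 9 dpf, close in ratio to its neighbour ela2l. olfm4.1, olfm4.2 and LOC113530463 lost their calls with the 9 dpf pair summed. How reads that fit similar neighbours were counted was not stated.

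**Figure D5:**
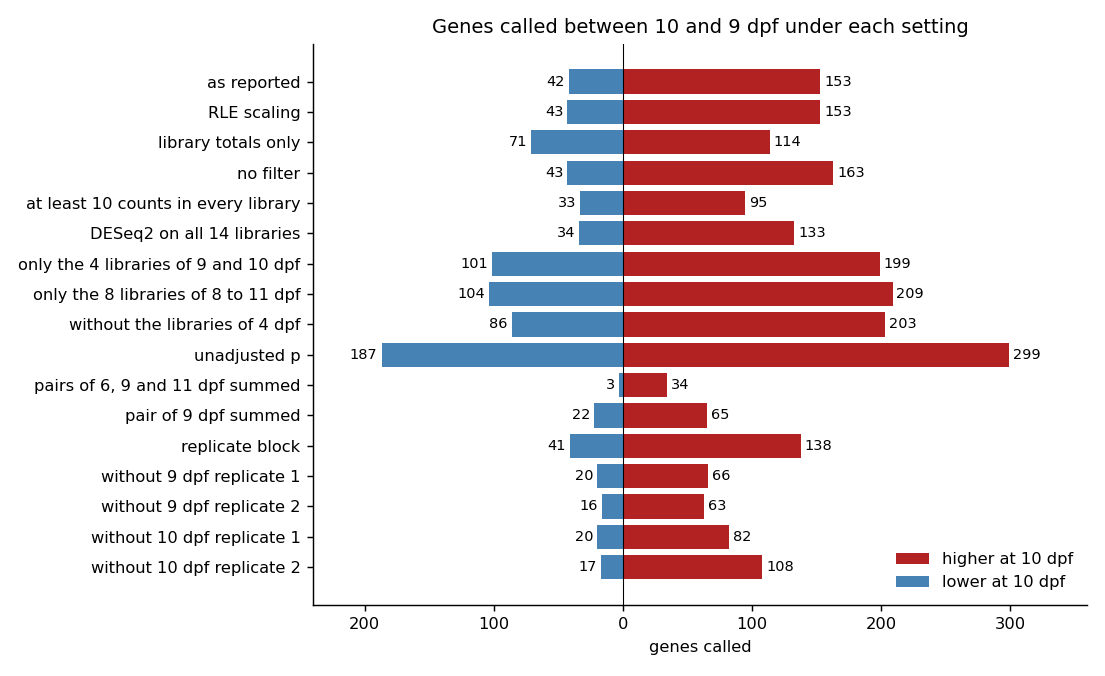
Genes called higher (right) and lower (left) at 10 dpf under the reported analysis and 16 alternatives. The counts run between 37 genes with the pairs of 6, 9 and 11 dpf summed and 486 with unadjusted p, and more genes were higher than lower at 10 dpf in each.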

How the data were processed

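Whole-body RNA of tra catfish larvae was sequenced after depletion of ribosomal RNA. The deposited table holds raw counts per gene made by the authors. Their processing notes name Trimmomatic 0.36 for trimming, STAR 2.7.0 and the genome GENO_Phyp_1.0 for alignment, and HTSeq for counting, with no strand or multi-mapping setting. It had 0 unused sample columns. Here genes passing filterByExpr (19310 of 21656) were fitted with edgeR 4.0.16 in R 4.3.3 by quasi-likelihood on all 14 libraries, with TMM scaling and stage as the factor (common dispersion 0.01409), and p-values were Benjamini-Hochberg adjusted over all genes tested. The call rule is given with the first count. CPM were computed here from TMM-scaled totals. SEs are the log2 fold change over the square root of F. Sharing the spread over all stages follows from having 2 libraries each. The pipeline was tested on simulated data.

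Of 11307 genes with a LOC identifier, 10538 were found in the name table of fPanHyp1.pri and 6917 took a symbol from it. Its order served for neighbours, and no coordinates or sequences were used. The 39 gene lists, the genes named and the tests were chosen with earlier results of these data known. Genes to name were drawn from the 15 largest increases and 10 largest decreases with at least 5 CPM. They were also drawn from list members called, the 2 most abundant members of other lists, the 5 smallest p in each direction and all oxygen carriers. Not all of these are printed. LOC113534331, left out above, was called higher, with means of 28.56 CPM at 10 dpf and 3.232 CPM at 9 dpf (log2 fold change 3.13). Other genes named (sycn, gipr, stm, scxb, ucmaa, cfd, pglyrp2, cd40, and1, and2, olfm4.1, olfm4.2, RNA processing genes and several LOC genes) and the view of 6, 8 and 11 dpf were chosen after values were seen. Intervals and floors cover counting error only. Alternatives were RLE and library-total scaling, no filter, 10 counts in every library (15835 genes), DESeq2 1.42.0, fewer libraries, unadjusted p, summed pairs, a replicate block and leaving out each library. Tables and figures used Python 3.11.15 with pandas 2.3.3 and matplotlib 3.10.9. The study's own tests, histology and oxygen challenge were not used here.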

Additional observations from a re-analysis of the deposited data

How the results depend on the processing

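No call turned its direction under any of the 16 alternatives, and 15 of the 195 calls were made under all of them. The alternatives reuse the same libraries, in which the stages did not overlap for any of the 195. A turn of direction was therefore hardly possible, and the setting with unadjusted p could lose no call. The 195 calls (153 higher, 42 lower at 10 dpf) became 128 (95 and 33) with at least 10 counts in every library, where fewer genes were tested, 300 (199 and 101) with only the 4 libraries of the comparison and 313 (209 and 104) with the 8 libraries of 8 to 11 dpf. Without the libraries of 4 dpf there were 289 (203 and 86), with unadjusted p 486 (299 and 187), with the pair of 9 dpf summed 87 (65 and 22), and with the pairs of 6, 9 and 11 dpf summed 37 (34 and 3). The causes of these shifts were not tested. Some genes called with the 9 dpf pair summed were not called with the 3 pairs summed. Among list members these included sftpba, agr2, cftr, grna, wfdc1, slc12a10.1, ldb3b and LOC113524458. Members of the gene lists called numbered 42, against 71, 17 and 7 with unadjusted p, the 9 dpf pair summed and the 3 pairs summed. Leaving out 1 library gave between 79 and 125 calls, 63 to 108 higher and 16 to 20 lower, and 14 to 33 list members, where the lone library left at a stage is assumed to vary like the others. By library totals alone 114 were higher and 71 lower, and 156 of the 195 were kept. RLE scaling gave 196, no filter 206 and DESeq2 167. Of the 122 genes or list members tracked singly, 91 to 98 kept their side of the threshold when 1 library was left out, 113 in DESeq2 and 95 with the 9 dpf pair summed.

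The deviations of the libraries of 9 and 10 dpf from their stage means had a correlation of -0.00638 by replicate number. The 9 dpf pair differed by little more than sampling (chi-square statistic per gene 1.15), so this value cannot tell whether the libraries were paired. With a replicate block 179 genes were called (138 higher, 41 lower), 175 of them among the 195.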
